A study of Mus musculus with 11 samples.

Results

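The study isolated RNA on endothelial ribosomes from mouse glioma and from healthy brain, in wild type mice and in mice lacking Eltd1, and the genes described here are the axon guidance families: ephrins and their Eph receptors, semaphorins and plexins, Slits and Robo receptors, and netrins and Unc5 receptors. Members were chosen by symbol, with earlier results of these data known, and 61 of the 45812 genes in the files matched. Efnb2, Ephb4, Sema3g and Robo4 were left out by the same choice, and the antisense entries Plxna4os1, Plxna4os2 and Plxna4os3 and the gene Unc5cl begin like members but are not counted. By family the 61 were 5 type A and 2 type B ephrins, 9 type A and 4 type B Eph receptors, 6 secreted class 3 semaphorins, 13 semaphorins of classes 4 to 7, 9 plexins, 3 Slits, 3 Robo receptors, 4 Unc5 receptors and 3 netrins.

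Guidance families were first described as cues that attract or repel growing axons, and vessels use them too. Ephrins are ligands held on the cell membrane that bind Eph receptor tyrosine kinases on a neighbouring cell, and signals can run into both cells. Semaphorins bind plexins, with neuropilins as co-receptors for most secreted class 3 members, Slits bind Robo receptors, and netrins bind Unc5 receptors, Dcc and neogenin. In brain the same genes are expressed by neurons, glia and vessel cells.

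The mice were adult C57BL/6 animals, and a line with the transgene was crossed with the Eltd1-/- line. In that transgene the VE-cadherin promoter, active in endothelium, drives eGFP-L10a, a fluorescently tagged ribosomal protein. Tumours came from 2 Eltd1-/- and 3 wild type mice and healthy brains from 3 mice of each genotype, and the tumours grew from GL261, a mouse glioma line injected into the brain. The same line was injected in both genotypes. Tagged ribosomes were pulled down with beads carrying an antibody to the fluorescent protein, and the labels describe the libraries as mouse samples, 3 a group, of which 2 knockout tumours are analysed here.

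Levels are given in FPKM, fragments mapped to a gene scaled by its transcript length and by the library's total, and sequencing depth is unknown. FPKM sums ran from 477911 to 641665. Adgrl4, the current symbol of Eltd1, stood at 11.5 and 5.82 FPKM in knockout against 27.4 to 192 in wild type tumours, and at 21.6 to 23.6 in knockout against 82.7 to 166 in wild type brains. The 10 endothelial markers, such as the tight junction gene Cldn5, were above 0 in every library and summed to between 277 and 770.2 FPKM in the 5 tumour libraries and between 1194 and 1804 in the 6 brain libraries. Neuron markers were present as well, and 10 of them summed to between 4044 and 5578 FPKM in brain. In tumour that neuron sum was 636 and 1271 FPKM in knockouts and 94.7, 419 and 2747 in wild types, highest in wild type replicate 3, where the synaptic gene Snap25 stood at 2083 FPKM. The 5 markers of dividing cells summed to 471 to 881 FPKM in tumour and 1.43 to 23.3 in brain. For 10 microglia and macrophage markers the sums were 90.4 to 179.5 and 39.6 to 71.7. Sums of the 8 glioma and progenitor markers overlapped, at 226 to 347 FPKM in tumour and 194 to 418 in brain. Of the 8, Olig2, Sox2, Nes, Cd44 and Olig1 were called higher in tumour over both genotypes in the fits below, and Prom1 lower. Prom1 stood at 9.70 to 134 FPKM in tumour and 125 to 327 in brain. Astrocyte markers summed lower in tumour, at 282 to 730.4 FPKM against 946 to 1611, though Gfap stood higher, at 67.7 to 105 against 12.7 to 38.4. The 8 oligodendrocyte markers summed to 279.6 to 859 FPKM in tumour and 848 to 1103 in brain. The part of these cells in guidance gene levels was not tested. Wild type tumour replicate 2 had 42.7% of the 15604 tested genes and 63.8% of the tested guidance genes listed at 0, against at most 25.7% of tested genes in any other library, and a 0 in these files can be a failed estimate. In such bulk samples fewer cells of a type and less RNA per cell cannot be told apart.

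Across both genotypes the guidance genes were mostly lower in tumour than in brain, with a change below 0 in 47 of 58. Of all 15604 tested genes 9002 had a change below 0. Of the 58 members tested, 27 fell and 5 rose, and 26 did not pass. Limma with Benjamini-Hochberg adjustment over all tested genes called 30.2% of all 15604 genes in this contrast, 12.6% higher and 17.6% lower, against 55.2% of the members. The median log2 change of the members was -1.49, beside -0.25 over all tested genes. In the same contrast the 10 endothelial markers had a median of -1.33, with 7 called lower and 0 higher. The 10 neuron markers had a median of -3.09, with 9 called lower and 0 higher. For the 8 oligodendrocyte markers the median was -2.02, with 6 called lower and 0 higher. For the 9 astrocyte markers it was -1.18, with 5 called lower and 1 higher. In 20 members all 5 tumour libraries lay below all 6 brain libraries, and 1 lay entirely above, where 12.3% and 8.73% of all tested genes did so. The contrast averaged tumour minus brain over the genotypes (n = 5 and 6 libraries), and all changes are on the log2(FPKM + 1) scale, which understates changes of low genes. Of the 27 members that fell, 23 had their highest tumour value in wild type tumour replicate 3 or knockout tumour replicate 2, the tumour libraries with the most neuron marker RNA, and so did 72.6% of all 2751 genes that fell. With the mean of the neuron markers as a covariate, 0 members and 0.468% of all genes passed, and Epha4, Epha5, Ephb6, Plxna4, Slit1 and Slit3 changed sign. The other 26 called members kept their direction in that fit. Efna5 stood at a log2 change of -2.89 (SE 1.08, against 0.52 without the covariate), Sema3b at 2.74 (SE 1.16, against 0.55) and Sema7a at -1.39 (SE 0.50, against 0.26). The neuron markers summed to at most 2747 FPKM in tumour and at least 4044 in brain. Covariate and tissue thus ran together, and the fit cannot separate neuron RNA from tissue. Leaving out knockout tumour replicate 1 lowered the members called from 32 to 13. The 13 members called in each of the 20 settings other than that covariate were Efna5, Efnb3, Epha6, Epha10, Plxna2, Plxnc1, Sema3c, Sema4a, Sema4f, Sema6b, Sema7a and Unc5d, which fell, and Sema3b, which rose. Of these 20, the fit of only the groups compared uses all 4 groups in this contrast, so it repeats the main fit and could lose no call.

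**Figure D1:**
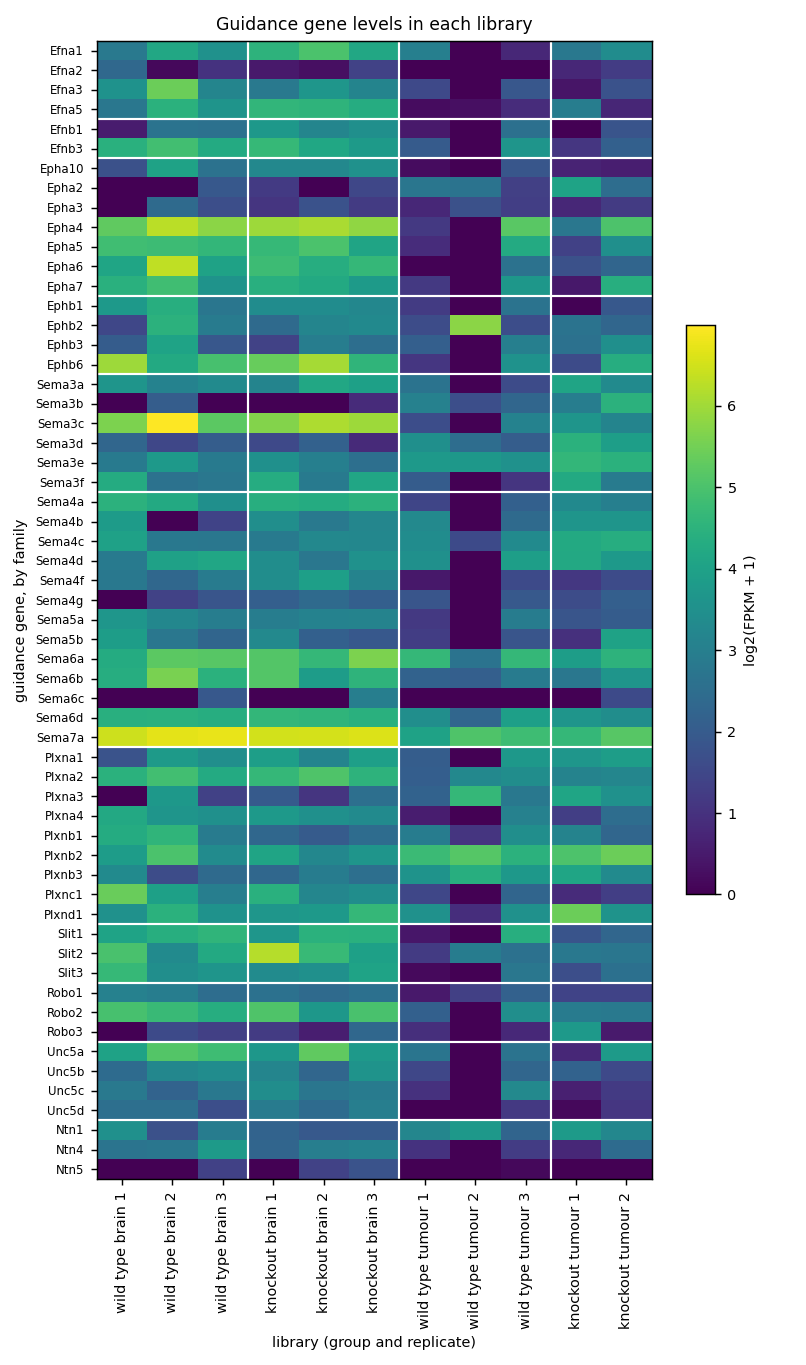
Level of each tested guidance gene (rows, grouped by family between white lines) in each of the 11 libraries (columns, grouped by tissue and genotype), as log2(FPKM + 1) by colour. The 27 genes that fell in tumour are brighter on the left, in brain, and wild type tumour 2 is dark in the 37 tested members listed at 0 there.

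Ephrins, the membrane-held ligands, included several that fell in tumour. Of 4 tested type A ephrins 3 fell, of the 2 type B ephrins 1 fell, and 0 rose. Efna5, a type A ephrin of neural maps, stood at 6.85 and 0.685 FPKM in knockout tumours and 0.170, 0.222 and 0.866 in wild type tumours. In brain Efna5 stood at 5.88, 21.1 and 11.3 FPKM in wild type and 23.4, 22.5 and 19.0 in knockout. The 3 wild type tumours lay below 1 FPKM and knockout tumour replicate 1 overlapped with 1 brain library (log2 change -2.89, SE 0.52, adjusted p = 0.00221). Efna3 stood at 0.325 and 2.40 FPKM in knockout tumours and 1.90, 0 and 2.76 in wild type tumours. In brain Efna3 stood at 10.9, 42.1 and 8.08 FPKM in wild type and 6.08, 11.8 and 7.94 in knockout, with every tumour library below every brain library (log2 change -2.52, SE 0.58, adjusted p = 0.00802). Efna1, the ligand of Epha2 that endothelium makes, stood at 5.95 and 9.60 FPKM in knockout tumours and 7.13, 0 and 0.725 in wild type tumours. In brain Efna1 stood at 6.09, 17.4 and 10.6 FPKM in wild type and 21.7, 31.4 and 17.4 in knockout. Its groups overlapped, with the 2 highest values in knockout brain, and it fell (log2 change -1.86, SE 0.57, adjusted p = 0.0288). The call on Efna1 was lost in 9 of the 20 other settings. Among type B ephrins, which span the membrane, Efnb3 stood at 1.14 and 3.45 FPKM in knockout tumours and 3.03, 0 and 11.5 in wild type tumours. In brain Efnb3 stood at 20.6, 28.2 and 18.4 FPKM in wild type and 24.9, 16.8 and 12.9 in knockout. All tumours lay below all brains (log2 change -2.61, SE 0.61, adjusted p = 0.00811). Efnb1 stood at 0 and 2.50 FPKM in knockout tumours and 0.405, 0 and 5.00 in wild type tumours. In brain Efnb1 stood at 0.454, 5.37 and 5.14 FPKM in wild type and 12.3, 8.12 and 10.1 in knockout. The tissues overlapped and the difference did not pass (log2 change -1.74, SE 0.64, adjusted p = 0.0611).

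Type A Eph receptors moved both ways. Of 7 tested, Epha4, Epha5, Epha6 and Epha10 fell and Epha2 rose. Epha2, the receptor that binds ephrin-A1 and is made by activated endothelium and by many tumours, stood at 15.7 and 4.61 FPKM in knockout tumours and 5.76, 5.28 and 1.49 in wild type tumours. In brain Epha2 stood at 0, 0 and 2.78 FPKM in wild type and 1.29, 0 and 1.82 in knockout. Knockout tumour replicate 1 was highest, 4 of the 5 tumours lay above all brains, and 3 brain libraries were listed at 0. It rose with log2 change 1.99, SE 0.58, adjusted p = 0.0227, and the call was lost without knockout tumour replicate 1 (adjusted p = 0.117), without knockout brain replicate 2 (0.0561) and with a pseudocount of 0.1 (0.0556). Epha4, which binds ephrins of both classes, stood at 5.81 and 31.6 FPKM in knockout tumours and 1.25, 0 and 35.8 in wild type tumours. In brain Epha4 stood at 38.2, 76.5 and 53.4 FPKM in wild type and 61.9, 67.2 and 55.6 in knockout. Knockout tumour replicate 2 and wild type tumour replicate 3 came close to the lowest brain while the other tumours were far below (log2 change -2.86, SE 0.80, adjusted p = 0.0201). Epha5, a forebrain receptor, stood at 1.54 and 10.1 FPKM in knockout tumours and 0.836, 0 and 18.2 in wild type tumours. In brain Epha5 stood at 27.6, 26.6 and 23.7 FPKM in wild type and 24.7, 31.4 and 15.9 in knockout. Wild type tumour replicate 3 overlapped with knockout brain replicate 3 (log2 change -2.61, SE 0.72, adjusted p = 0.0186). Epha6 stood at 2.32 and 3.90 FPKM in knockout tumours and 0.0255, 0 and 5.17 in wild type tumours. In brain Epha6 stood at 16.4, 79.0 and 15.3 FPKM in wild type and 26.5, 19.6 and 24.2 in knockout, and all tumours lay below all brains (log2 change -3.26, SE 0.62, adjusted p = 0.00291). Epha10, whose kinase domain is thought to be inactive, stood at 0.630 and 0.501 FPKM in knockout tumours and 0.166, 0 and 2.66 in wild type tumours. In brain Epha10 stood at 2.33, 15.2 and 5.22 FPKM in wild type and 8.52, 8.66 and 10.6 in knockout. Only wild type tumour replicate 3 reached the brain range (log2 change -2.40, SE 0.54, adjusted p = 0.00723).

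Of the 4 type B receptors Ephb1 and Ephb6 fell. Ephb6, which lacks kinase activity, stood at 2.00 and 19.4 FPKM in knockout tumours and 1.14, 0 and 10.8 in wild type tumours. In brain Ephb6 stood at 61.2, 18.0 and 29.8 FPKM in wild type and 40.3, 64.8 and 22.7 in knockout. Knockout tumour replicate 2 overlapped with brain (log2 change -2.93, SE 0.72, adjusted p = 0.0105). Ephb1 stood at 0.0307 and 2.79 FPKM in knockout tumours and 1.34, 0 and 5.32 in wild type tumours. In brain Ephb1 stood at 12.8, 19.9 and 5.76 FPKM in wild type and 9.47, 9.62 and 8.34 in knockout, with all tumours below all brains (log2 change -2.35, SE 0.60, adjusted p = 0.0127). Ephb2, an active type B kinase, stood at 5.27 and 3.93 FPKM in knockout tumours and 2.1, 53.2 and 2.16 in wild type tumours. In brain Ephb2 stood at 1.81, 21.4 and 6.44 FPKM in wild type and 4.33, 8.07 and 8.98 in knockout. Its highest value was wild type tumour replicate 2, above every other library, and its lowest was wild type brain replicate 1, and the tissue difference did not pass (log2 change -0.22, SE 0.81, adjusted p = 0.864).

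Class 3 semaphorins, the secreted class, split into falling and rising members. Sema3c fell, Sema3b and Sema3d rose, and the other 3 of 6 did not pass. Sema3c, a ligand of neuropilin and plexin complexes, stood at 11.6 and 7.98 FPKM in knockout tumours and 2.12, 0 and 7.53 in wild type tumours. In brain Sema3c stood at 47.5, 126 and 36.5 FPKM in wild type and 50.7, 69.5 and 61.7 in knockout. Every tumour library lay at 11.6 FPKM or lower and every brain library at 36.5 or higher (log2 change -3.44, SE 0.54, adjusted p = 0.000964), and it passed in wild type alone as well (log2 change -4.36, SE 0.72, adjusted p = 0.00263). Sema3b stood at 6.84 and 21.4 FPKM in knockout tumours and 7.41, 2.23 and 3.95 in wild type tumours. In brain Sema3b stood at 0, 3.16 and 0 FPKM in wild type and 0, 0 and 0.828 in knockout. The pair of knockout tumours and 2 of the 3 wild type tumours lay above all brains, and 4 of the 6 brain libraries were listed at 0 (log2 change 2.55, SE 0.55, adjusted p = 0.00579). It was the only member that rose and kept its call in each of the 20 settings other than the neuron covariate. Sema3d, another secreted neuropilin ligand, stood at 21.1 and 14.0 FPKM in knockout tumours and 10.2, 4.60 and 3.14 in wild type tumours. In brain Sema3d stood at 3.95, 1.79 and 3.16 FPKM in wild type and 1.92, 3.47 and 0.790 in knockout. Knockout tumours were highest and wild type tumour replicate 3 overlapped with brain (log2 change 1.70, SE 0.47, adjusted p = 0.0187). Without knockout tumour replicate 1 the call on Sema3d was lost (adjusted p = 0.0912). Sema3e, which binds Plxnd1 without a neuropilin, stood at 23.8 and 21.1 FPKM in knockout tumours and 12.6, 12.3 and 10.7 in wild type tumours. In brain Sema3e stood at 6.34, 12.7 and 6.37 FPKM in wild type and 10.4, 7.10 and 4.92 in knockout. The knockout tumours were highest, the wild type tumours overlapped with 1 brain library, and it did not pass (log2 change 1.01, SE 0.36, adjusted p = 0.0551).

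Of the 13 semaphorins of classes 4 to 7, bound to the membrane, 5 fell in tumour, 0 rose and 8 did not pass. Sema7a, a semaphorin held by a lipid anchor that binds integrins and Plxnc1, was the highest guidance gene in brain, at 96.2 ± 8.25 FPKM (mean ± SD, n = 6) against 26.9 ± 7.82 in tumour (n = 5). Sema7a stood at 24.4 and 35.3 FPKM in knockout tumours and 15.2, 32.5 and 27.2 in wild type tumours. In brain Sema7a stood at 87.4, 104 and 108 FPKM in wild type and 90.2, 91.2 and 96.5 in knockout. No tumour library exceeded 35.3 FPKM and no brain library lay below 87.4, and the fall passed over both genotypes (log2 change -1.82, SE 0.26, adjusted p = 0.000538), in wild type (log2 change -2.02, SE 0.34, adjusted p = 0.00327) and in knockout (log2 change -1.62, SE 0.38, adjusted p = 0.0282). Sema3c and Epha4 came next in brain, at 65.3 ± 31.9 and 58.8 ± 13.1 FPKM, and differed by less than their spread. Sema4a, a membrane semaphorin also known from immune cells, stood at 8.95 and 7.10 FPKM in knockout tumours and 1.77, 0 and 3.41 in wild type tumours. In brain Sema4a stood at 21.5, 17.8 and 10.1 FPKM in wild type and 19.8, 18.6 and 21.4 in knockout. All tumours lay below all brains, with the 2 knockout tumours nearest to brain (log2 change -2.04, SE 0.46, adjusted p = 0.00707). Sema6b, a ligand of type A plexins, stood at 5.79 and 11.5 FPKM in knockout tumours and 3.57, 3.37 and 6.47 in wild type tumours. In brain Sema6b stood at 19.5, 47.3 and 21.1 FPKM in wild type and 33.8, 13.6 and 22.4 in knockout, again without overlap (log2 change -1.85, SE 0.41, adjusted p = 0.00648). Sema6d stood at 11.6 and 9.65 FPKM in knockout tumours and 10.0, 3.95 and 14.4 in wild type tumours. In brain Sema6d stood at 20.3, 20.6 and 19.6 FPKM in wild type and 23.9, 23.0 and 20.6 in knockout, with a smaller fall and no overlap (log2 change -1.09, SE 0.36, adjusted p = 0.0383), a call lost in 12 of the 20 settings. Sema4f stood at 1.19 and 2.00 FPKM in knockout tumours and 0.370, 0 and 1.98 in wild type tumours. In brain Sema4f stood at 5.98, 4.06 and 6.48 FPKM in wild type and 9.73, 14.4 and 7.68 in knockout, below brain in every tumour (log2 change -2.07, SE 0.45, adjusted p = 0.00612). Sema6a, another plexin ligand, stood at 13.8 and 21.9 FPKM in knockout tumours and 24.1, 5.27 and 24.0 in wild type tumours. In brain Sema6a stood at 18.8, 36.6 and 35.0 FPKM in wild type and 33.6, 24.3 and 47.8 in knockout. Wild type tumour replicate 2 was lowest and knockout tumour replicate 1 also lay below the brains, the other 3 tumours overlapped with brain, and it did not pass (log2 change -0.92, SE 0.43, adjusted p = 0.129).

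**Figure D2:**
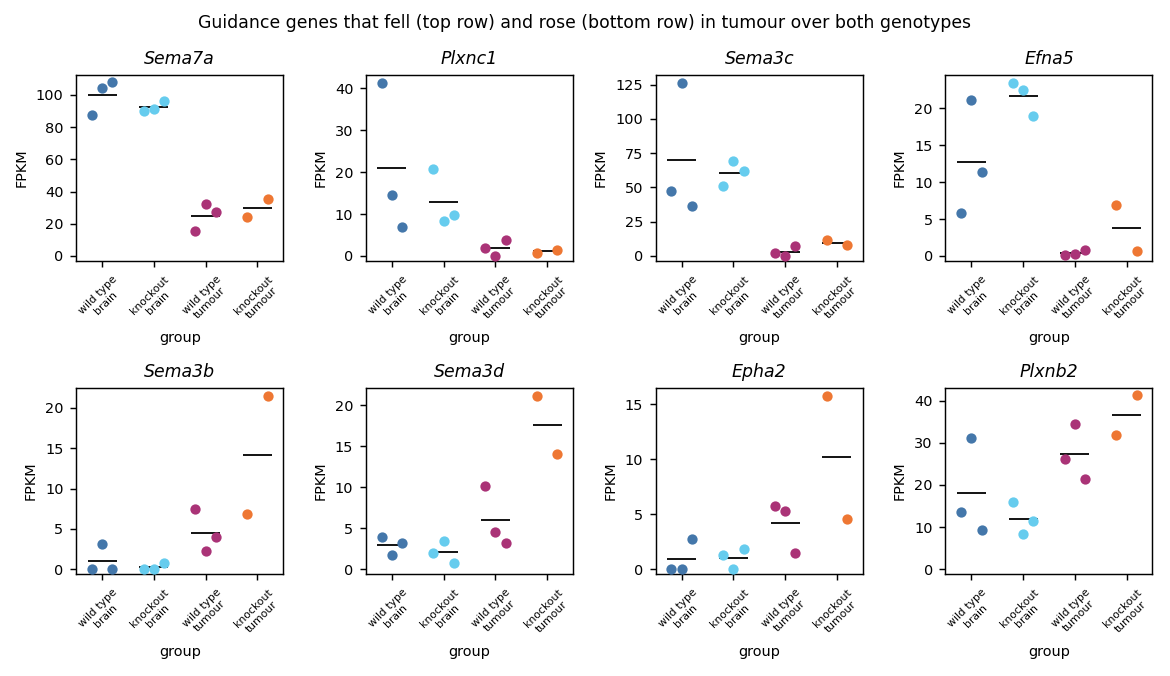
FPKM (vertical axes) in each library (points) of the 4 groups (horizontal axes), with group means as bars. Sema7a, Plxnc1, Sema3c and Efna5 (top) were lower in tumour than in brain, and Sema3b, Sema3d, Epha2 and Plxnb2 (bottom) were higher, each called over both genotypes.

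Promoters are shown for the members that fell and rose with the smallest p over both genotypes and have a promoter in the RefSeq table, to show the DNA at a start of genes that moved in each direction. Each is the 250 bases before the start that the table uses, on the plus strand in GRCm38, in lower case, and capitals mark matches to 5 short motifs on either strand. The windows are chr9:57939862-57940111 for Sema7a, chr5:17574566-17574815 for Sema3c, chr5:12382916-12383165 for Sema3d and chr4:141300971-141301220 for Epha2. The Sema7a window lies inside the gene's RefSeq span, which begins upstream of it at 57939596, and the last bases of the Sema3d window lie past that gene's first base at 12383161.
Sema7a: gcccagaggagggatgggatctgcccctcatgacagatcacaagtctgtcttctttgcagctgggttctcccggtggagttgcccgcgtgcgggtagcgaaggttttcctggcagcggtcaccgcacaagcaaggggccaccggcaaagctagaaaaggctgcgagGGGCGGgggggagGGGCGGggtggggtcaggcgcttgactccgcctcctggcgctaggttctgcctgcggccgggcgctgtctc
Sema3c: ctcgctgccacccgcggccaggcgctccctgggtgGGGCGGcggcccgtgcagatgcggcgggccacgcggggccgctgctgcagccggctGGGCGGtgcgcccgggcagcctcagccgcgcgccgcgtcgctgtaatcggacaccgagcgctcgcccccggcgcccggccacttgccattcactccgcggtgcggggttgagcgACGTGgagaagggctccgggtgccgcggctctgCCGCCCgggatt
Sema3d: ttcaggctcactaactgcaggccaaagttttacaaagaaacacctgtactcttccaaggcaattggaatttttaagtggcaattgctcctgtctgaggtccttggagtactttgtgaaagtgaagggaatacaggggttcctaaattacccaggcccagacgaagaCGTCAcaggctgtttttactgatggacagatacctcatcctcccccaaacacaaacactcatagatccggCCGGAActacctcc
Epha2: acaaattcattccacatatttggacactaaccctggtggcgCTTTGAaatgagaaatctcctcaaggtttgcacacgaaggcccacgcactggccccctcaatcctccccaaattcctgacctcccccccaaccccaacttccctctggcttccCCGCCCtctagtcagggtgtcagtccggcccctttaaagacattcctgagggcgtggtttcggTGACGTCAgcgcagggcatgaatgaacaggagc

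The motifs searched were the GC box GGGCGG, the hypoxia response core ACGTG, the LEF/TCF core TCAAAG, the CREB core TGACG and the ETS core CCGGAA, and their reverse complements. Sema7a held 2 GC boxes and Sema3c held 3 GC boxes and 1 hypoxia response core. Sema3d held 1 CREB core and 1 ETS core, and Epha2 held 1 GC box, 1 LEF/TCF core and 2 CREB cores that overlap on opposite strands. GC content was 66.4% in the window of Sema7a and 78.4% in that of Sema3c, against 46.8% for Sema3d and 55.6% for Epha2, with a median of 52.4% over all 32851 promoters of the table. Among all promoters 32.7% held a GC box, 16.6% the hypoxia core, 13.8% the LEF/TCF core, 17.8% the CREB core and 12% the ETS core. Among the 68 promoters of the 52 members with an entry the shares were 69.1%, 17.6%, 2.94%, 8.82% and 10.3%. A match is a description of letters and not a site of binding.

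Plexins, the semaphorin receptors, moved in both directions, and 3 of 9 fell while 2 rose. Plxnc1, the receptor of Sema7a, stood at 0.812 and 1.44 FPKM in knockout tumours and 1.82, 0 and 3.90 in wild type tumours. In brain Plxnc1 stood at 41.2, 14.6 and 6.88 FPKM in wild type and 20.7, 8.32 and 9.70 in knockout. All tumours lay below all brains (log2 change -2.74, SE 0.59, adjusted p = 0.00579), as they did for its ligand. Plxna2, a receptor of class 6 semaphorins and of class 3 with neuropilins, stood at 7.67 and 8.22 FPKM in knockout tumours and 3.26, 8.58 and 9.83 in wild type tumours. In brain Plxna2 stood at 21.1, 28.4 and 18.4 FPKM in wild type and 24.3, 32.5 and 22.1 in knockout, with no overlap (log2 change -1.60, SE 0.36, adjusted p = 0.00690). Plxna4 stood at 1.47 and 4.65 FPKM in knockout tumours and 0.476, 0 and 7.36 in wild type tumours. In brain Plxna4 stood at 17.5, 11.5 and 10.3 FPKM in wild type and 12.5, 10.4 and 9.12 in knockout, again with no overlap (log2 change -2.1, SE 0.59, adjusted p = 0.0192). Plxnb2, a receptor of class 4 semaphorins, was the highest guidance gene in tumour at 31.1 ± 7.68 FPKM (mean ± SD, n = 5) against 15.0 ± 8.35 in brain (n = 6). Sema7a came next in tumour at 26.9 ± 7.82 FPKM, and the difference was less than their spread. Plxnb2 stood at 31.8 and 41.4 FPKM in knockout tumours and 26.1, 34.5 and 21.5 in wild type tumours. In brain Plxnb2 stood at 13.6, 31.1 and 9.42 FPKM in wild type and 15.9, 8.39 and 11.4 in knockout, where wild type brain replicate 2 lay within the tumour range (log2 change 1.14, SE 0.37, adjusted p = 0.0345). Plxnb3 stood at 16.1 and 9.14 FPKM in knockout tumours and 11.1, 20.0 and 12.3 in wild type tumours. In brain Plxnb3 stood at 9.09, 2.1 and 4.35 FPKM in wild type and 4.01, 6.71 and 4.83 in knockout, and it was the member with every tumour library above every brain library, by a narrow gap (log2 change 1.28, SE 0.44, adjusted p = 0.0454). The call on Plxnb2 was lost in 8 of 20 settings, 7 of which left out a single library (highest adjusted p = 0.128, without knockout tumour replicate 2), and that on Plxnb3 in 13 of 20, 9 of which did (highest 0.188, without knockout tumour replicate 1). Plxnd1, the endothelial receptor of Sema3e, did not pass (log2 change -0.36, SE 0.58, adjusted p = 0.663).

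All 3 Slits and 2 of the 3 Robo receptors fell in tumour, and 0 rose. Slit2, a secreted ligand of Robo receptors, stood at 5.99 and 5.76 FPKM in knockout tumours and 1.30, 6.68 and 5.09 in wild type tumours. In brain Slit2 stood at 30.9, 9.14 and 17.8 FPKM in wild type and 72.6, 25.4 and 14.7 in knockout. All tumours lay below all brains, and knockout brain replicate 1 was highest (log2 change -2.06, SE 0.53, adjusted p = 0.0131). Slit3 stood at 2.22 and 4.93 FPKM in knockout tumours and 0.135, 0 and 5.80 in wild type tumours. In brain Slit3 stood at 24.9, 9.87 and 11.6 FPKM in wild type and 9.29, 10.4 and 15.7 in knockout, with no overlap (log2 change -2.23, SE 0.58, adjusted p = 0.0142). Slit1, mainly a neural Slit, stood at 2.50 and 3.91 FPKM in knockout tumours and 0.353, 0 and 19.8 in wild type tumours. In brain Slit1 stood at 15.6, 19.7 and 23.0 FPKM in wild type and 11.8, 21.1 and 20.7 in knockout. Wild type tumour replicate 3 lay within the brain range and the other tumours far below (log2 change -2.44, SE 0.72, adjusted p = 0.0246), and the call was lost in 7 of the 20 settings. Robo2 stood at 6.55 and 6.13 FPKM in knockout tumours and 3.41, 0 and 9.95 in wild type tumours. In brain Robo2 stood at 30.0, 25.6 and 19.3 FPKM in wild type and 32.6, 12 and 30.6 in knockout, with no overlap (log2 change -2.26, SE 0.58, adjusted p = 0.0135). Robo1 stood at 1.65 and 1.64 FPKM in knockout tumours and 0.393, 1.50 and 3.51 in wild type tumours. In brain Robo1 stood at 7.43, 6.77 and 4.60 FPKM in wild type and 5.15, 4.35 and 5.02 in knockout, also without overlap (log2 change -1.33, SE 0.44, adjusted p = 0.0406), and its call was lost in 14 of the 20 settings.

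Of the netrin families, Unc5a and Unc5d of the 4 Unc5 receptors and Ntn4 of 3 netrins fell, and 0 rose. Unc5a, a neuronal netrin receptor, stood at 0.703 and 12.9 FPKM in knockout tumours and 5.52, 0 and 5.32 in wild type tumours. In brain Unc5a stood at 15.3, 33.8 and 27.2 FPKM in wild type and 11.9, 37.7 and 12.7 in knockout. Knockout tumour replicate 2 reached the brain range (log2 change -2.42, SE 0.70, adjusted p = 0.0221). Unc5d stood at 0.104 and 1.16 FPKM in knockout tumours and 0, 0 and 1.24 in wild type tumours. In brain Unc5d stood at 4.92, 4.85 and 2.18 FPKM in wild type and 6.54, 4.46 and 6.91 in knockout, above every tumour (log2 change -2.01, SE 0.44, adjusted p = 0.00628). Unc5b, the netrin receptor of endothelium, stood at 3.61 and 1.91 FPKM in knockout tumours and 1.82, 0 and 3.98 in wild type tumours. In brain Unc5b stood at 4.47, 8.44 and 9.59 FPKM in wild type and 8.06, 3.96 and 11.0 in knockout. The highest tumour and the lowest brain overlapped narrowly and it did not pass (log2 change -1.46, SE 0.53, adjusted p = 0.0579). Ntn4, a netrin of vascular basement membranes, stood at 0.699 and 4.39 FPKM in knockout tumours and 1.05, 0 and 1.35 in wild type tumours. In brain Ntn4 stood at 5.43, 5.64 and 13.1 FPKM in wild type and 3.84, 6.96 and 7.55 in knockout. Knockout tumour replicate 2 overlapped with knockout brain replicate 1 (log2 change -1.76, SE 0.50, adjusted p = 0.0219). Ntn1 stood at 13.1 and 8.40 FPKM in knockout tumours and 8.16, 12.3 and 3.80 in wild type tumours. In brain Ntn1 stood at 10.4, 2.30 and 6.62 FPKM in wild type and 3.67, 2.90 and 2.93 in knockout. The tissues overlapped and the difference did not pass (log2 change 0.91, SE 0.48, adjusted p = 0.175).

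The other 23 members did not pass, and none exceeded 41.6 FPKM in any library. Among them Sema5a, a membrane semaphorin with thrombospondin repeats, was chosen after its values were seen because all 5 tumours, at most at 6.59 FPKM, lay below all 6 brains, at 6.82 to 11.8, without passing (log2 change -1.53, SE 0.54, adjusted p = 0.0504). Efna4, Epha1 and Epha8 had under 2 libraries with at least 1 FPKM and were not tested.

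Within each genotype fewer members passed. In wild type 19 of 58 fell and 0 rose, where 19.4% of all tested genes passed, 7.70% higher and 11.7% lower. The members' median was -1.82, beside -0.26 over all genes. The 19 were Efna3, Efna5, Efnb3, Epha4, Epha5, Epha6, Ephb6, Ntn4, Plxna2, Plxna4, Plxnc1, Robo2, Sema3c, Sema4a, Sema4f, Sema6b, Sema7a, Slit3 and Unc5d. This count of 19 became 8 without wild type tumour replicate 1 or 2 or without wild type brain replicate 1 or 2. It was 9 without wild type brain replicate 3 and 12 without any 1 of the 3 knockout brains. Without wild type tumour replicate 3, the tumour library with the most neuron marker RNA, it was 29. Of all genes, 11.8% were called without wild type tumour replicate 1, 15.8% without replicate 2 and 25.2% without replicate 3. The share was 12.4%, 12.7% and 14.8% without wild type brain replicates 1, 2 and 3. It was 16.4%, 16.4% and 15.9% without knockout brain replicates 1, 2 and 3. In knockout 3 of 58 passed, where 7.08% of all genes did, 4.79% higher and 2.29% lower, and the 3 were Sema7a, which fell, and Sema3b (log2 change 3.44, SE 0.82, adjusted p = 0.0294) and Sema3d (log2 change 2.67, SE 0.70, adjusted p = 0.0421), which rose. The knockout median was -1.15, beside -0.18 over all genes. That count was 0 without either knockout tumour or any 1 of the 3 knockout brains, 10 without wild type tumour replicate 2 and 11 without wild type tumour replicate 3. Of all genes, 12.9% passed in knockout without wild type tumour replicate 2 and 12.2% without replicate 3. Without 1 knockout brain the share was 3.62% to 3.70%. The wild type and knockout contrasts share no libraries, though the fit pooled their spread and both enter the average given first. A change below 0 in both contrasts was seen in 38 members, above 0 in both in 9, and of opposite sign in 11. Of all 15604 tested genes 8940 had a change below 0 in wild type and 8657 in knockout. The share below 0 in both was not counted over all genes. The test of the difference between them is given with the genotype results.

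**Figure D3:**
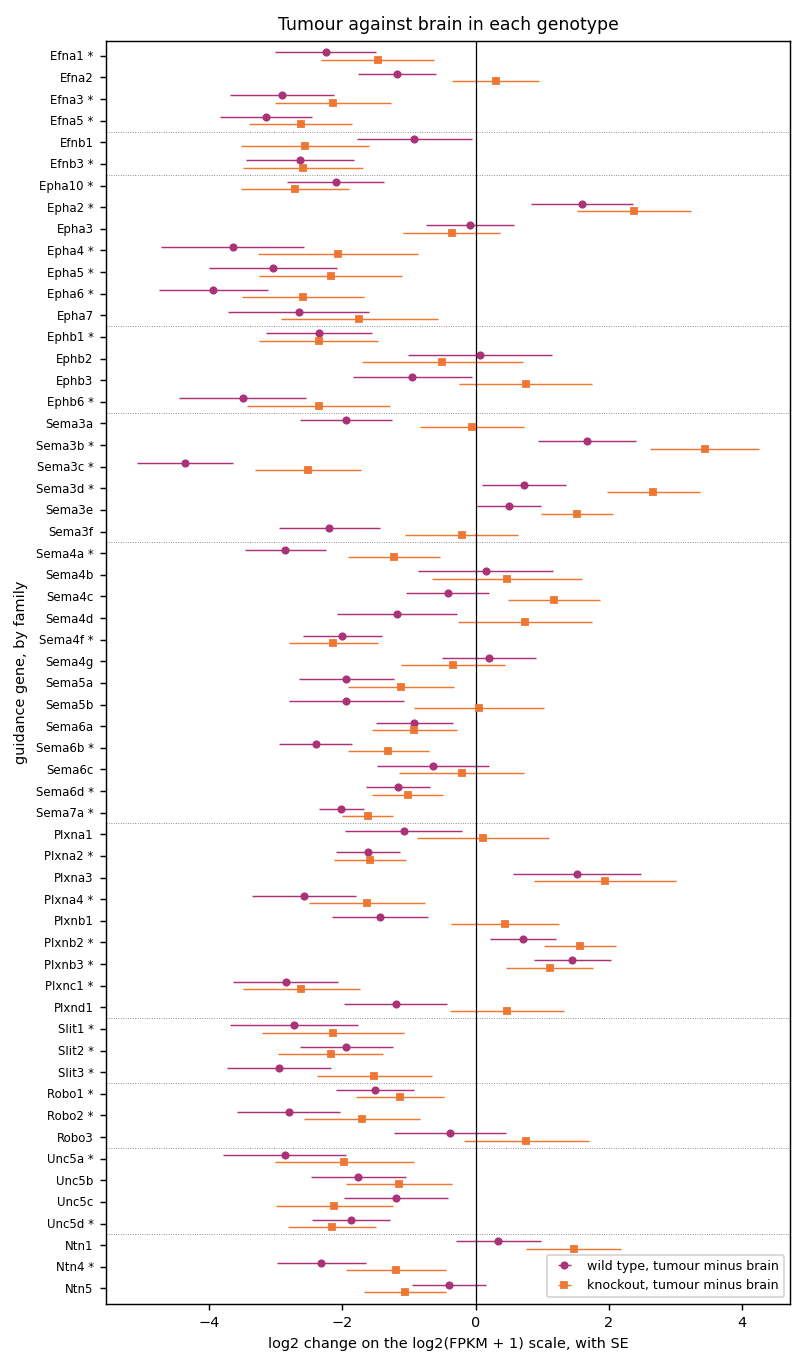
Change from brain to tumour of each tested guidance gene in wild type (circles) and knockout (squares), as log2 change with its standard error (horizontal axis), by family (vertical axis). A star marks the 32 genes called over both genotypes, and most points of both genotypes lie left of 0. Both points lie right of 0 for Epha2, Sema3b, Sema3d, Sema3e, Plxna3, Plxnb2, Plxnb3, Ntn1 and Sema4b. In 11 other genes the genotypes lie on opposite sides of 0.

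Partners of these families were counted in the same contrast over both genotypes, where 30.2% of all genes passed with a median of -0.25. Of 14 co-receptors and further ligands, 7 fell and 0 rose, with a median of -1.21. Of 30 intracellular effectors 9 fell and 1 rose (33.3%), a share near that of all genes, with a median of -0.47. Nrp1 and Nrp2, the neuropilins, fell by 1.12 and 0.97 on the log2 scale (adjusted p = 0.0433 and 0.0479). Dcc, the netrin receptor, fell by 1.60 (SE 0.51), and Flrt2, a ligand of Unc5 receptors, fell by 1.86 (SE 0.40). Pak1, a kinase downstream of Rac, fell by 2.26 (SE 0.33), and Ablim1, an actin-binding protein, fell by 1.50 (SE 0.20). Trio, a guanine nucleotide exchange factor for Rac and RhoA, was the 1 partner that rose (log2 change 2.04, SE 0.30, adjusted p = 0.000629). Its FPKM was 45.5 and 64.4 in knockout tumours, 77.5, 49.7 and 92.1 in wild type tumours, and between 11.4 and 19.7 in the 6 brains, with no overlap.

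Knockout and wild type were then compared within tumour, which asks whether loss of Eltd1 altered the guidance genes of tumour vessels. By limma 0 of 58 members passed, where 0.0192% of all genes did, and 5 members had an unadjusted p under 0.05, all of them semaphorins and all higher in knockout, where 3.11% of all genes had such a p. Sema3f, a secreted semaphorin that binds Nrp2, stood at 17.8 and 6.45 FPKM in knockout tumours and 3.11, 0 and 1.12 in wild type tumours. In brain Sema3f stood at 18.7, 5.26 and 5.89 FPKM in wild type and 19.0, 6.24 and 16.6 in knockout. Both knockout tumours lay above the 3 wild type tumours and within the range of brain (log2 difference 2.52, SE 0.85, adjusted p = 1.00). Sema3a, which binds Nrp1, stood at 15.9 and 9.17 FPKM in knockout tumours and 5.28, 0 and 2.02 in wild type tumours. In brain Sema3a stood at 11.5, 7.54 and 9.17 FPKM in wild type and 7.88, 17.1 and 14.6 in knockout. Its knockout tumours, too, lay above the wild type tumours and within the range of brain (log2 difference 2.30, SE 0.78, adjusted p = 1.00). Sema4a (log2 difference 1.96, SE 0.69, adjusted p = 1.00) and Sema3c (log2 difference 1.83, SE 0.80, adjusted p = 1.00) were next, both with the knockout tumours above all wild type tumours. In 10 members both knockout tumours lay above all wild type tumours and in 0 below, where 10.8% and 4.61% of all genes did so.

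All 19 semaphorins had a higher mean in knockout tumours, with a median difference of 1.37 on the log2 scale, beside 0.16 over all genes, of which 61.2% were higher. Without wild type tumour replicate 2, which lists many genes at 0, 15 of 19 were higher with a median of 0.79, and without knockout tumour replicate 2 the count was 16 with a median of 0.61. It was 17 after quantile normalization, with a median of 0.96 beside -0.03 over all genes. The 6 class 3 semaphorins were each higher in knockout in all of these fits. No semaphorin passed the adjustment in any of them. With all libraries, 47 of the 58 members were higher in knockout tumours on the log2(FPKM + 1) scale, with a median of 0.70. Without wild type tumour replicate 2 that median was 0.49, beside 0.04 over all genes. The 6 Slit and Robo genes were all higher on that scale (median 0.77). In mean FPKM, Slit1 (3.20 in knockout against 6.73 in wild type tumours) and Robo1 (1.64 against 1.80) were lower. Higher on the log2(FPKM + 1) scale, too, were 10 of 17 ephrins and Eph receptors (0.79), 7 of 9 plexins (0.42) and 5 of 7 netrins and Unc5 receptors (0.46). None of the neuron or endothelial markers passed in this contrast. All 10 neuron markers had a difference above 0 with a median of 1.16, and 9 of 10 endothelial markers with a median of 0.51. With the neuron covariate 16 of 19 semaphorins were higher with a median of 0.90, beside 0.08 over all genes, and the median of all 58 members was 0.15 in place of 0.70. The endothelial markers summed to 615 and 499 FPKM in knockout tumours and to 406, 770.2 and 277 in wild type tumours, and their part in these differences was not tested.

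**Figure D4:**
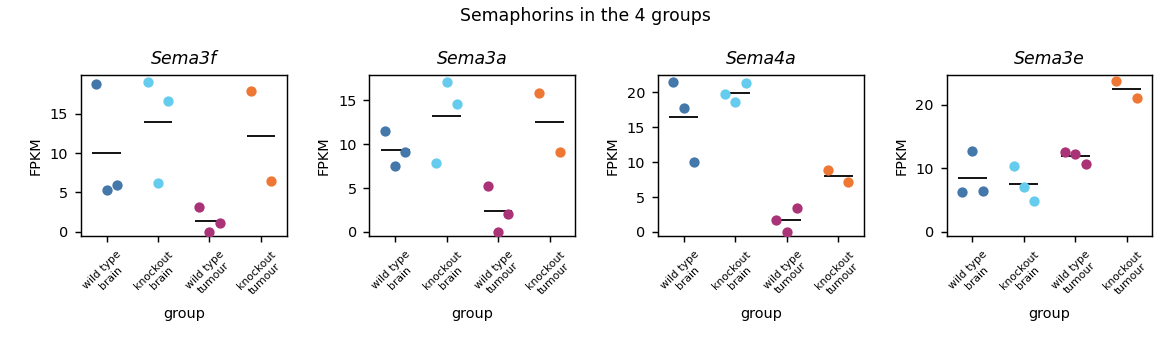
FPKM (vertical axes) of 4 semaphorins in each library (points) of the 4 groups (horizontal axes), with group means as bars. In Sema3f, Sema3a, Sema4a and Sema3e both knockout tumours lie above the 3 wild type tumours, a difference that did not pass limma's adjustment in any of them.

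In brain 0 of 58 members passed between genotypes, where 0.00641% of all genes did, and the median over the members was -0.01. By limma 1 member, Plxnb1, a receptor of Sema4d, had an unadjusted p under 0.05, where 4.35% of all genes did. It stood at 18.7, 22.8 and 6.53 FPKM in wild type and 4.03, 3.01 and 4.59 in knockout brains, with no overlap (log2 difference -1.66, SE 0.72, adjusted p = 1.00). Efnb1 (log2 difference 1.52, SE 0.86, adjusted p = 1.00), Sema4g (log2 difference 1.14, SE 0.70, adjusted p = 1.00) and Sema4b (log2 difference 1.42, SE 1.01, adjusted p = 1.00) followed and did not pass. Knockout brains lay above all wild type brains in 5 members and below in 1, where 4.68% and 3.84% of all genes did so.

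Averaged over both tissues the genotype effect gave 0 of 58 members by limma and 4 at an unadjusted p under 0.05, where 0.00641% and 3.39% of all genes passed, with Sema3f (log2 difference 1.53, SE 0.57, adjusted p = 0.998), Sema3a (log2 difference 1.35, SE 0.52, adjusted p = 0.998), Efna1 (log2 difference 1.44, SE 0.57, adjusted p = 0.998) and Sema4a (log2 difference 1.14, SE 0.46, adjusted p = 0.998) first. The test of whether the genotype effect differs between tumour and brain, which is also the test of whether tumour against brain differs between genotypes, gave 0 members by limma and 0 at an unadjusted p under 0.05, where 0.00641% and 3.18% of all genes passed. The 4 members with the smallest p there were Sema3d (log2 difference 1.94, SE 0.94, adjusted p = 1.000), Sema3a (log2 difference 1.90, SE 1.04, adjusted p = 1.000), Sema4a (log2 difference 1.64, SE 0.92, adjusted p = 1.000) and Sema3f (log2 difference 1.99, SE 1.13, adjusted p = 1.000).

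The summed levels show how the families ran with the marker lists. The 20 ephrins and Eph receptors summed to 54.5 and 128 FPKM in knockout tumours, to 30.5, 61.1 and 123 in wild type tumours and to between 215 and 418 in brains. Their 2 highest tumour libraries were the 2 with the highest neuron marker sums. The 19 semaphorins summed to 215 and 235 FPKM in knockout tumours, to 129.8, 66.2 and 146 in wild type tumours and to between 302 and 423 in brains, and here the pair of knockout tumours was highest among tumours. The part of neuron, endothelial and other cell types in these sums was not tested. The fit with the neuron covariate cannot separate neuron RNA from tissue.

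**Figure D5:**
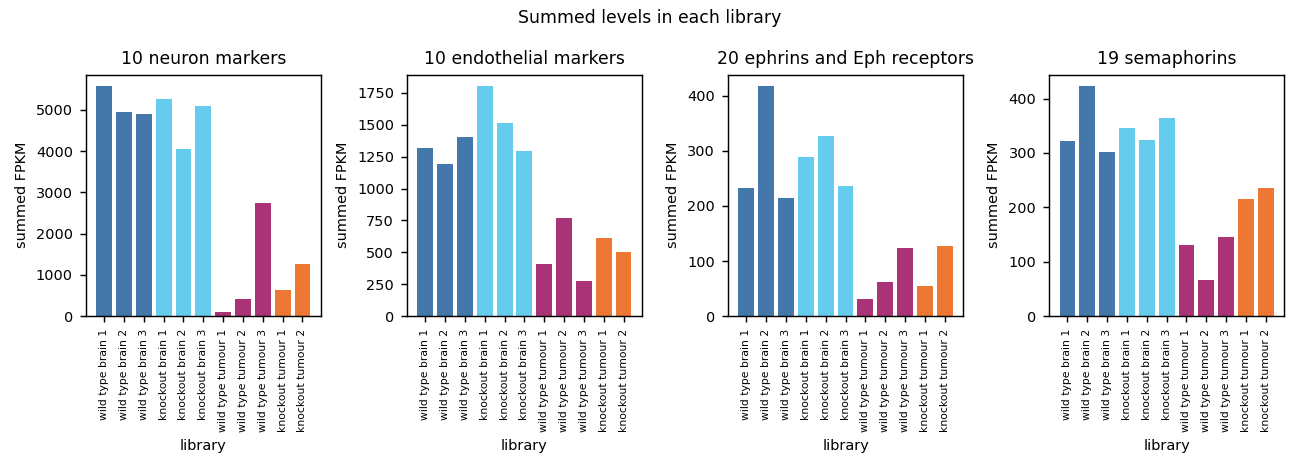
Summed FPKM (vertical axes) of 10 neuron markers, 10 endothelial markers, 20 ephrins and Eph receptors and 19 semaphorins in each library (horizontal axes, coloured by group). Ephrins and Eph receptors are highest among tumours in wild type tumour 3 and knockout tumour 2, as are the neuron markers, while semaphorins are highest in the 2 knockout tumours.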

How the data were processed

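Ribosome-bound RNA of 11 samples was sequenced. Per the submitters' processing notes, the tools included TopHat2 2.1.1 and Cufflinks 2.2.1 with mouse build GRCm38, and the deposited values are FPKM per gene as the authors' files give them. The libraries were made with a stranded kit, per the labels' protocols, but neither the annotation nor the strand setting of the counting was stated, so overlapping and antisense genes may share reads. The 470 entries of 209 repeated symbols were summed, giving 45812 genes. For each of 55 pairs of libraries, FPKM ratios were taken for genes above 0 and under 5 FPKM in both. The commonest ratio covered only 0.214% to 1.29% of those genes. Steps of whole reads could not be read off, so depth is unknown and no counting intervals are given. Genes with at least 1 FPKM in 2 libraries were tested with limma 3.58.1 (R 4.3.3) on log2(FPKM + 1), with 4 group means over all 11 libraries, a trended prior, two-sided p-values and Benjamini-Hochberg adjustment over all 15604 genes per contrast, at 0.05. The fit was also run on simulated data with independent noise for each gene. That simulation had no library with excess zeros and no shared neuron signal, so it cannot test the fit for these. P-values measure the spread between these mouse samples. Values per library are given for members that passed with a mean of at least 5 FPKM in the highest group and for the 2 highest members of each family, and the 4 members with the smallest p in each genotype contrast are named. Members, marker lists and partner lists were chosen with earlier results of these data known. Promoters are from RefSeq (GRCm38.p6), and all 61 members matched its gene table.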

Additional observations from a re-analysis of the deposited data

How the results depend on the processing

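Members called, of 58 tested unless another number is given, moved with the processing. The share of all genes called moved as well. Over both genotypes it was 24.9% with a pseudocount of 0.1. In wild type it was 13.6% with that pseudocount, 12.6% with no filter, 13.5% with upper quartile scaling and 7.70% with only the groups compared. In knockout it was 4.55% with that pseudocount, 5.61% with upper quartile scaling and 11.7% with quantile normalization. Library weights gave 26.4% there, and only the groups compared 22.6%. The counts of members were as follows. Over both genotypes the 32 became 21 with a pseudocount of 0.1, 0 with the neuron list as covariate, and 13 to 37 when 1 library was left out (13 without knockout tumour replicate 1). In wild type the 19 became 7 with a pseudocount of 0.1, 12 of 60 with no filter, 8 with upper quartile scaling, 3 of 56 with only the groups compared, 0 with the neuron covariate, and 8 to 29 when 1 library was left out. In knockout the 3 became 1 with a pseudocount of 0.1 or upper quartile scaling, 12 with quantile normalization, 23 with library weights, 18 with only the groups compared, 0 with the neuron covariate, 16 with wild type tumour 2 and 3 both left out, and 0 to 11 when 1 library was left out. The genotype contrasts called 0 members under all 21 alternatives. Single genes reversed under the neuron covariate only. Over both genotypes the log2 changes became 1.41 for Epha4, 1.01 for Epha5, 0.15 for Ephb6, 0.49 for Plxna4, 1.12 for Slit1 and 0.26 for Slit3, and in wild type 0.19 for Efnb3, 1.66 for Epha4, 1.46 for Epha5, 0.33 for Ephb6, 0.65 for Plxna4 and 0.15 for Slit3. The causes were not tested. Over both genotypes the median of all genes was -0.25, and it was -0.12 with upper quartile scaling and -0.06 with quantile normalization. No paired analysis was possible because the labels give no replicate numbers within groups, and the numbers used here only name libraries in accession order.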
